A study of Mus musculus with 6 samples.

Results

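The type I interferon effectors and regulators described here are 9 genes, Irf7, Stat2, Usp18, Ifit1, Ifit3, Oas1a, Ifi44, Rtp4 and Ifi27, of the 1285 genes that the authors' deposited table holds. They were picked by name from that table, with its group means in view, so their lower means in Snai2-/- cells are a description and no test of the pathway. The RNA came from the mesenchymal stem and progenitor cells, called MSPCs, of mouse bone marrow, which are stromal cells that support blood stem cells, in 3 Snai2-/- and 3 control libraries from littermates 8 weeks of age. Snai2 encodes Slug, a zinc-finger repressor of the Snail family. All libraries, controls included, came from mice carrying the Nes-GFP reporter, a green fluorescent protein under nestin sequences, and each was made from 2000 sorted cells that were GFP-positive and lacked CD45, Ter119 and CD31. The sources used here do not give how the Snai2 allele was made, the genotype of the littermates called control, or whether each library is 1 animal.

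Type I interferons are secreted proteins that signal through the receptor pair Ifnar1 and Ifnar2 and the kinases Jak1 and Tyk2. Signalling leads to the complex ISGF3, which contains Stat2 and Irf9, and ISGF3 binds the interferon-stimulated response element (ISRE) in the promoters of target genes. The targets include antiviral effectors, amplifiers such as Irf7 and brakes such as Usp18, and many are transcribed at a low tonic level without infection.

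The table gives 1 mean per group for each gene, on a normalized scale of unstated unit, beside their ratio, an unadjusted p, and an FDR, which is the false discovery rate after step-up adjustment. Values of single libraries were not analysed here, so no spread stands beside a mean, overlap of the groups cannot be stated, and depth is unknown. Every gene in the table has an unadjusted p below 0.05, and its FDR values correspond to 16718 genes tested. The deleted gene itself, Snai2, had a mean of 9.20 in Snai2-/- cells and 636 in control cells, per the authors' deposited table. Its FDR of 0.0758 was the lowest of the authors' deposited table, so no gene, and none of the 9, reached an FDR of 0.05.

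The 9 genes lie on 8 chromosomes of GRCm38 in the GENCODE M21 annotation. Ifit1 (chr19:34640871-34650009, plus strand, 2 exons) and Ifit3 (chr19:34583531-34588731, plus strand, 2 exons) are the 2 that share a chromosome, with 52139 bases between them. Stat2 lies at chr10:128270559-128292849 (plus strand, 24 exons in its longest coding transcript), Irf7 at chr7:141262706-141266481 (minus strand, 10 exons) and Usp18 at chr6:121245906-121270917 (plus strand, 11 exons). Oas1a lies at chr5:120896256-120907521 (minus strand, 7 exons) and Ifi44 at chr3:151730922-151749960 (minus strand, 8 exons). Ifi27 lies at chr12:103434211-103440239 (plus strand, 7 exons in its longest coding transcript). Rtp4, at chr16:23520291-23614222 (plus strand, 4 exons), shares its chromosome with Snai2 and starts 8.81 Mb beyond the end of that gene. Of the 222 protein-coding genes within 10 Mb of Snai2, Rtp4 included, 15 were in the table, a share of 6.76%, against 7.69% of all genes tested. The 222 are annotated genes, whether tested or not, so these shares have unlike denominators. In Snai2-/- cells 7 of the 15 had a lower and 8 a higher mean.

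The promoters are shown because the ISRE is the sequence through which the pathway is known to reach these genes. Its presence in a promoter was not used to pick them. The genes were picked as members of this pathway, though, so a high ISRE share goes with that choice and is no separate support. RefSeq promoter windows on GRCm38.p6, from 250 bases before to 50 after the transcription start, were at hand for 6 of the 9, namely Ifit1, Ifit3, Oas1a, Stat2, Irf7 and Ifi44. The windows were searched on both strands for the ISRE letters GAAA, any 2 bases and GAAA again, which read TTTC, any 2 bases and TTTC from the other side. Ifit1, Ifit3, Oas1a and Stat2 held it. The 250 bases before the start of these 4 genes follow in the direction of transcription, with each match in capitals.
Ifit1: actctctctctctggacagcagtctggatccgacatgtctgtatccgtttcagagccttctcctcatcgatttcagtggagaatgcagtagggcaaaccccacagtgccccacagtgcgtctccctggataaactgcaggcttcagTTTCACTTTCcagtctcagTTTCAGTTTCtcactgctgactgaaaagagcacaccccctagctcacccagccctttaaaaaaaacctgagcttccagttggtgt
Ifit3: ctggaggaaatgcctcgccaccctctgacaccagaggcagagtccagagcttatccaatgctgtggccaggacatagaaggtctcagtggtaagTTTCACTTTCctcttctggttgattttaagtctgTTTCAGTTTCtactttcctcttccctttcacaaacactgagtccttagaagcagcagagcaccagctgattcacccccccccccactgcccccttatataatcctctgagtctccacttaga
Oas1a: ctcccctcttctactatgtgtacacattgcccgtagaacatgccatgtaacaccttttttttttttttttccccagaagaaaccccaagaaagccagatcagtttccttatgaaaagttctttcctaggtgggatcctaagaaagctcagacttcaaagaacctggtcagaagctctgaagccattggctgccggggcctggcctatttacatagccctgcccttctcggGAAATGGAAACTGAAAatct
Stat2: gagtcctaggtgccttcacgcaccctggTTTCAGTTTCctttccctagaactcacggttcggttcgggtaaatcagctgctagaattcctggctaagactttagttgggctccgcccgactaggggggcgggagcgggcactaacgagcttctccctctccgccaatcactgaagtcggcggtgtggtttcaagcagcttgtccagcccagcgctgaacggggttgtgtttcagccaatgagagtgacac
The stretches are chr19:34640639-34640888 (plus strand) for Ifit1, chr19:34583279-34583528 (plus strand) for Ifit3, chr5:120907526-120907775 (minus strand) for Oas1a and chr10:128270248-128270497 (plus strand) for Stat2.

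Ifit1 and Ifit3 held the same pair of matches, TTTCACTTTC followed by TTTCAGTTTC. They begin 104 and 85 bases before the start in Ifit1, and 156 and 122 bases before it in Ifit3. In Oas1a the matches GAAATGGAAA and GAAACTGAAA overlap, and begin 20 and 14 bases before the start. Stat2 held 1 match, TTTCAGTTTC, that begins 222 bases before the start. In Irf7 and Ifi44 those letters did not occur in the window.

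**Figure D1:**
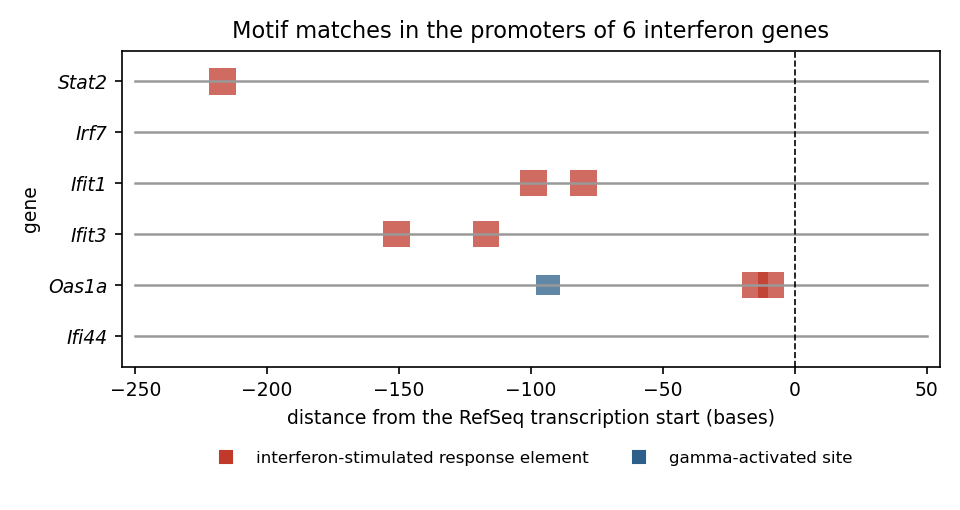
Matches to 2 motifs in the promoter windows of 6 interferon genes, on an axis of bases from the RefSeq transcription start (dashed line). Red boxes are ISRE matches on either strand and the blue box is the 1 match to the gamma-activated site, in Oas1a. Ifit1, Ifit3 and Oas1a each hold 2 ISRE matches, Stat2 holds 1, and Irf7 and Ifi44 hold none.

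The ISRE letters occurred in 4 of these 6 promoters, 66.7%, and in 1079 of all 27025 genes with a window, 3.99%. Among the other genes of the table they occurred in 27 of 466 genes with a lower mean in Snai2-/- cells, 5.79%, and in 21 of 469 genes with a higher mean, 4.48%. The 27 include Ddx58, Isg15, Oas1g, Shisa5 and Slfn5, which are counted again among the interferon-pathway genes that follow. The other interferon-pathway genes, from lists given further on, held the letters in 5 of 10 cases where they were in the table, and in 26 of 81 cases, 32.1%, where they were not. Some genes have more than 1 window. Counted per window, the shares were alike, 31.2% of 16 windows for genes in the table and 31.3% of 99 for the rest. The narrower form, with C as the first of the 2 free bases, was in the same 4 promoters, in 20.0% of those 10 genes and in 0.792% of all genes with a window. The gamma-activated site TTCNNNGAA, an element of promoters that respond to interferon gamma, was in 1 of the 6, Oas1a, and in 9.55% of all genes. The Snail-type E-box CAGGTG, searched on both strands and the kind of site that Slug binds, was in 0 of the 6, against 22.6% of all genes. The sets also differ in GC content, the share of G and C bases. Its median was 50.5% in the 6 windows and 52.7% in all windows. It was 59.7% for the other genes with a lower mean and 60.7% for those with a higher mean. The part of GC content in these shares was not tested. A match is a string of letters and shows no binding.

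Among the regulators, Stat2 and Irf7 had the smaller relative differences and Usp18 the largest. Stat2, the signal transducer of ISGF3, had a mean of 24.0 in Snai2-/- cells and 39.2 in control cells, per the authors' deposited table. Irf7, the transcription factor that amplifies type I interferon production, had a mean of 22.9 in Snai2-/- cells and 42.2 in control cells, per the authors' deposited table. Snai2-/- cells thus held 61.1% of the control mean of Stat2 and 54.3% of that of Irf7. Their unadjusted p-values were 0.00534 and 0.0055, at a shared FDR of 0.385, per the authors' deposited table, where they ranked 225 and 235 by p.

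Usp18, the protease that removes Isg15 from proteins and blocks signalling at Ifnar2, is a target and a brake of the pathway. Its mean was 5.41 in Snai2-/- cells and 16.0 in control cells, per the authors' deposited table. That is 33.9% of the control mean, a log2 ratio of -1.56, at an unadjusted p of 0.00947 and an FDR of 0.451, per the authors' deposited table. The median ratio of the 3 regulators was 0.543 and that of the 6 effectors 0.402, with ratios from 0.339 to 0.611 and from 0.203 to 0.574.

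Ifit1 and Ifit3 are effectors of the Ifit family, some members of which bind foreign RNA and block its translation. Both had lower means in Snai2-/- cells. Ifit1 had a mean of 8.34 in Snai2-/- cells and 23.3 in control cells, per the authors' deposited table, and ranked 76 by p, the best rank of the 9. The unadjusted p of Ifit1 was 0.00155 at an FDR of 0.322, per the authors' deposited table. For Ifit3, which in human cells partners IFIT1, the means were 4.52 in Snai2-/- cells and 10.1 in control cells, per the authors' deposited table, with a log2 ratio of -1.16 at an FDR of 0.423. The Ifit cluster on chromosome 19 holds 6 genes in the annotation, of which 3 were in the table, Ifit2 being the other. Of 9 Oas1, Oas2 and Oas3 genes on chromosome 5, 2 were in the table, and of all genes tested 7.69%. Ifit1, Ifit3 and Oas1a were picked from the table, so these counts were partly fixed by that choice.

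The identity of Ifit3 and Oas1a in short reads is less certain than that of the rest. The coding sequence of Ifit3 was 99.1% identical to that of Ifit3b, and 51.2% of the 50-base words of its transcript also occur in Ifit3b. Oas1a was 96.7% identical to Oas1g over the coding sequence and shared 57.6% of its 50-base words with it. For comparison, Ifit1 was 49.3% identical to Ifit3 and 73.2% to Ifit1bl1, and 7.13% of its words occur in other genes. Rtp4 shared 13.6% of its words, all with the overlapping model Gm45338, and Usp18 4.47%, with Gm44148. Irf7, Stat2, Ifi44 and Ifi27 shared 0% with any other annotated gene. The sources used here give neither the length of the reads nor how ambiguous ones were counted.

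Oas1a, an oligoadenylate synthetase that senses double-stranded RNA and activates RNase L, had the largest relative difference and the lowest level. Its mean was 0.437 in Snai2-/- cells and 2.16 in control cells, per the authors' deposited table, which is a ratio of 0.203. The unadjusted p of 0.0222 and the FDR of 0.55 were the highest of the 9, per the authors' deposited table. Only 17.8% of the genes in the table had a lower control mean. With 1 added to both means its log2 ratio was -1.14 in place of -2.30, so its place as the largest difference depends on a very low mean.

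Ifi44, an interferon-induced cytoplasmic protein, had a mean of 10.7 in Snai2-/- cells and 31.6 in control cells, per the authors' deposited table. Its ratio of 0.338 stood next to that of Usp18, but its unadjusted p was larger, 0.0163, at an FDR of 0.499, per the authors' deposited table. Rtp4, a chaperone of receptor trafficking, had a mean of 44.9 in Snai2-/- cells and 91.6 in control cells, per the authors' deposited table. It ranked 143 by p, with an unadjusted p of 0.00305 and an FDR of 0.356, per the authors' deposited table, the second-best rank of the 9.

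Ifi27, a small hydrophobic membrane protein induced by interferon, was the most abundant of the 9. It had a mean of 116 in Snai2-/- cells and 201 in control cells, per the authors' deposited table, which is a ratio of 0.574 at an unadjusted p of 0.0149 and an FDR of 0.484. Only 4.51% of the genes in the table had a higher control mean.

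**Figure D2:**
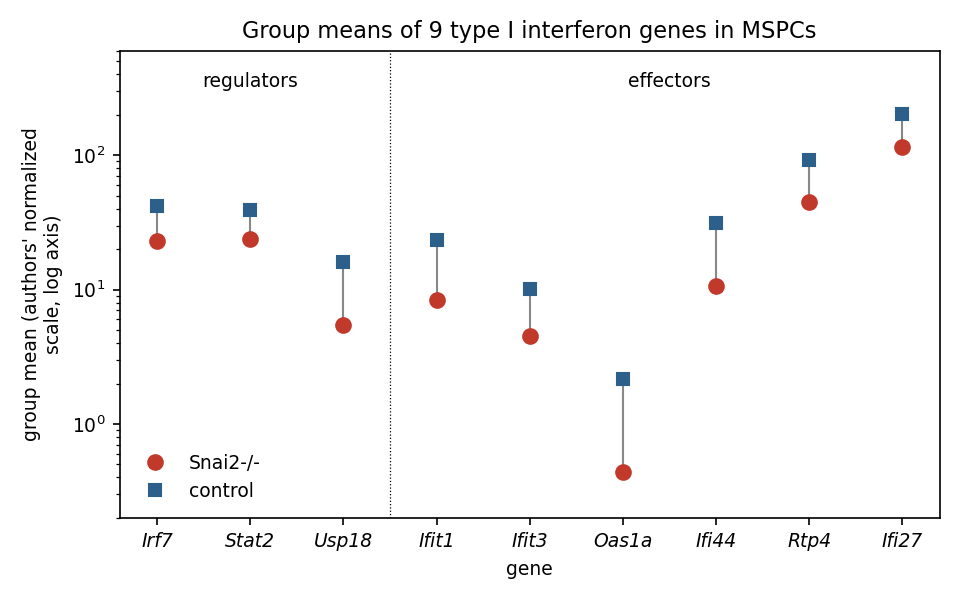
Group means of the 9 genes, regulators on the left and effectors on the right of the dotted line, on a log axis in the authors' normalized units. Red circles are Snai2-/- and blue squares control, each the authors' mean of 3 libraries with no error available. The red circle lies below the blue square for all 9 genes, with the widest gap for Oas1a (0.437 against 2.16) and the narrowest for Stat2 (24.0 against 39.2).

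Per kilobase of the longest coding transcript, the 3 highest and the 2 lowest of the 9 were the same genes in both groups. Ifi27 stood highest, with 118 units per kilobase in Snai2-/- and 206 in control cells, followed by Rtp4 with 24.2 in Snai2-/- and 49.3 in control cells. Irf7 came next, with 10.2 in Snai2-/- and 18.9 in control cells. In control cells Ifi44, Usp18, Stat2 and Ifit1 then lay between 8.78 and 10.8 units per kilobase, which without replicate values cannot be ranked against each other. In Snai2-/- cells the same 4 lay between 3.06 and 5.45 units per kilobase. Ifit3 and Oas1a were lowest, with 2.59 and 0.232 units per kilobase in Snai2-/- cells and 5.80 and 1.14 in control cells. These levels assume that the deposited means had not been divided by length, which the values do not show. If they had been, the order would be that of the means.

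The relative differences varied with abundance. Across the 9 genes, Spearman's rho between the control mean and the log2 ratio was 0.73, so that genes of higher mean had ratios nearer to 1. Over the 650 genes of the table with a lower mean in Snai2-/- cells it was 0.65, leaving out those with a group at or below 0.001. The points share the same 6 libraries and the control mean enters both axes. All were also kept by a limit on p, which lets low means in only at large ratios.

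All 9 genes were in the table with a lower mean in Snai2-/- cells, as were 3.91% of all 16718 genes tested, but the choice of the genes fixed that count. The median log2 ratio of the 9 was -1.16, against -0.36 for all 1285 genes in the table and -0.81 for the 654 genes with a lower mean. A ratio of 0.5 or less was found for 6 of the 9 and for 237 of the 654, 36.2%. Of the 9 in the authors' deposited table, 6 had an unadjusted p below 0.01 and 8 a p below 0.02. Of all genes tested, 0.969% and 1.77% passed these limits with a lower mean, which is 162 and 296 of the 654. The 9 were picked from genes that already had a p below 0.05, so the shares of all genes tested are no test of them. Between 64 genes (below Oas1a) and 378 genes (below Stat2) with lower means had a ratio still lower than that of a given gene of the 9. Their differences thus lay within the range of other genes of the table.

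**Figure D3:**
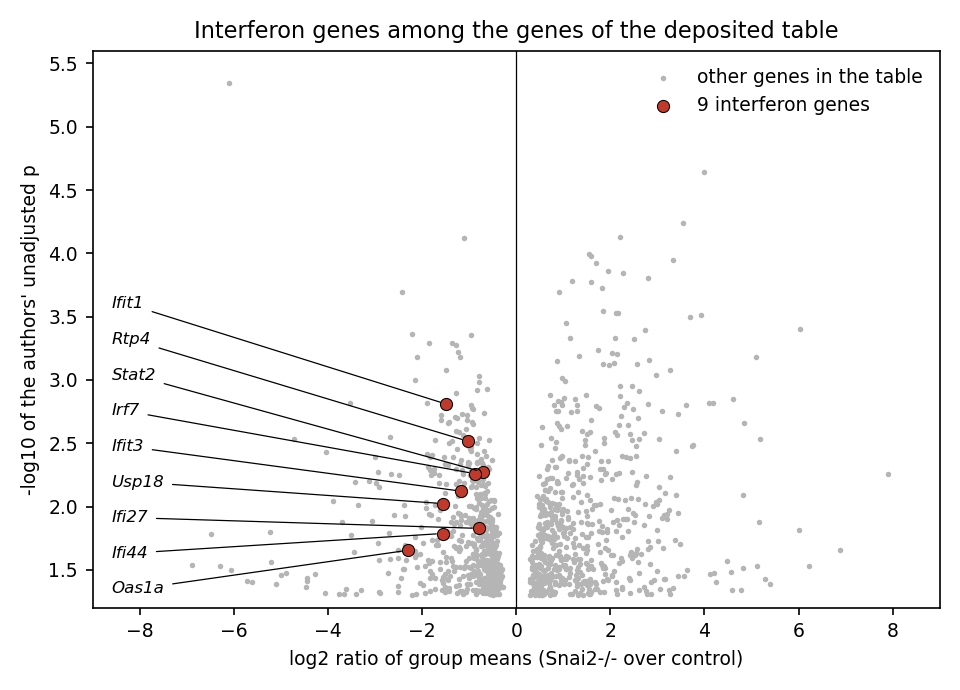
The log2 ratio of group means (Snai2-/- over control, horizontal) against -log10 of the authors' unadjusted p (vertical) for the genes of the table, with the 9 interferon genes in red and the rest in grey. The 7 genes with a group mean at or below 0.001 are not drawn. The 9 genes lie left of 0, between -2.30 and -0.71, within the cloud of other genes with a lower mean.

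The 5 genes outside the 9 whose pattern came nearest to theirs, by distance in log2 ratio and log2 overall mean from the medians of the 9 over the 2 group means, were Steap2, Adh7, Fbxw17, P2ry1 and Sp100. Their distances ran from 0.106 to 0.183 log2 units. With 2 group means per gene this likeness says only that size and level were alike. Steap2, for example, had a mean of 13.0 in Snai2-/- cells and 30.9 in control cells, per the authors' deposited table.

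The wider pathway was described with 6 lists of 120 genes in all, the 9 included. Of the 111 others, 10 were in the table, 9.01%, against 7.69% of all genes tested. With a lower mean in Snai2-/- cells there were 9 of the 111, 8.11%, against 3.91% of all genes tested. A higher mean was given for 1 of them, 0.901%, against 3.77% of all genes tested. Their median log2 ratio was -0.69. Which of the 111 were expressed well enough to be tested is not known, so neither share carries an error.

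At the head of the pathway, 0 of 10 interferon ligand genes and 0 of 6 receptor genes were in the table. With 7.69% of all genes tested in the table, fewer than 1 of either list would be there at that share, and 1.15 of a list of 15, so the counts of the lists in this paragraph lie near the background. Ifnb1, Ifnar1 and Ifnar2 are thus either untested genes or genes with an unadjusted p of at least 0.05. Of 15 genes for receptor kinases, STATs and interferon regulatory factors Stat2 and Irf7 were in the table, and Irf9, which joins Stat2 in ISGF3, was not. Of 15 sensor and adaptor genes 1 was in the table, Ddx58, which encodes the RNA sensor RIG-I. It had a mean of 29.1 in Snai2-/- cells and 45.3 in control cells, per the authors' deposited table, at an FDR of 0.473.

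Of 10 negative regulators, Usp18 and Ptpn6 were in the table, with opposite directions. Ptpn6, a phosphatase abundant in blood cells, had a mean of 7.70 in Snai2-/- cells and 2.69 in control cells, per the authors' deposited table, at an FDR of 0.615. On the leukocyte list 1 gene of 10 was in the table, Cd48. It had a mean of 3.64 in Snai2-/- cells and 1.21 in control cells, per the authors' deposited table. At the share of 7.69% of all genes tested, 0.769 of a list of 10 would be in the table, so both counts lie near the background.

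Of 64 interferon-induced effector genes 14 were in the table, 6 of the 9 and 8 others, each with a lower mean in Snai2-/- cells. Without the 6, the 8 of 58 were 13.8%, against 3.91% of all genes tested that had a lower mean in Snai2-/- cells and 7.69% in either direction. Isg15, the ubiquitin-like modifier that Usp18 removes, had a mean of 13.1 in Snai2-/- cells and 20.9 in control cells, per the authors' deposited table. Ifit2, another Ifit protein, had a mean of 6.61 in Snai2-/- cells and 12.6 in control cells, per the authors' deposited table. Lgals3bp, a secreted glycoprotein, was the most abundant of the 8, with a mean of 389 in Snai2-/- cells and 585 in control cells, per the authors' deposited table. Sp100, a nuclear body protein, and Epsti1 had ratios of 0.429 and 0.289, per the authors' deposited table.

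The smallest difference among the 8 was that of Shisa5, with a ratio of 0.781, per the authors' deposited table, and Slfn5 had a ratio of 0.612. Oas1g, the near copy of Oas1a, was almost undetected, with a mean of 0.00918 in Snai2-/- cells and 0.447 in control cells, per the authors' deposited table. Mx1, Mx2, Rsad2, Bst2, Oas2 and Oasl2, classical targets on the same list, were not in the table.

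**Figure D4:**
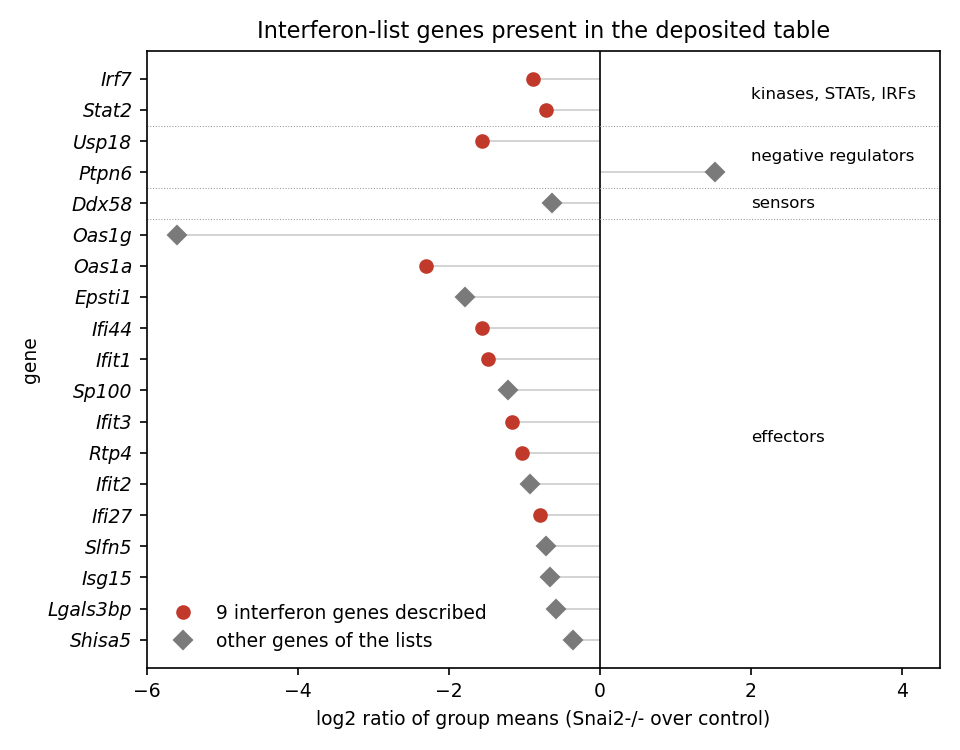
Log2 ratio of group means (Snai2-/- over control) for the 19 interferon-list genes in the table, grouped by role, with the 9 genes described as red circles and the other 10 as grey diamonds. Ptpn6 alone lies right of 0, and Oas1g, at -5.61, rests on a mean of 0.00918 in Snai2-/- cells.

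Markers of other cells were also in the table, and the background share of 7.69% of all genes tested comes to 0.922 of a list of 12. Of 12 neutrophil markers 7 were in the table, all 7 with a higher mean in Snai2-/- cells, and the means of these 7 summed to 820 in Snai2-/- cells and 186 in control cells. Their most abundant genes, the granule genes Ngp and S100a9, had ratios of 5.72 and 2.95, per the authors' deposited table. Of 10 markers of plasmacytoid dendritic cells, which make much type I interferon in the body, only Pacsin1 was in the table, with a mean of 5.48 in Snai2-/- cells and 0.642 in control cells, per the authors' deposited table. Siglech, their defining surface marker, was not in the table. Of 12 monocyte and macrophage, 12 erythroid, 12 lymphocyte and 12 endothelial markers 1, 1, 0 and 2 were in the table, of which Vwf alone had a lower mean in Snai2-/- cells. The mean of Vwf was 1.38 in Snai2-/- cells and 23.0 in control cells, per the authors' deposited table. Flt4, the other endothelial marker in the table, had a mean of 6.85 in Snai2-/- cells and 3.28 in control cells, per the authors' deposited table. The 7 neutrophil markers stood above the background number, and the counts of the other lists named here lay between 0 and 2. No list covered bone or cartilage cells, so these counts do not speak to them.

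Of 18 markers of MSPCs and stroma 1 was in the table, the transcription factor gene Ebf1, with a mean of 210 in Snai2-/- cells and 362 in control cells, per the authors' deposited table. Nes, Lepr, Cxcl12 and Pdgfra were not in it, so their levels, and with them the labelled cell type, cannot be checked in these values. In such bulk libraries fewer cells that carry an RNA and less of it per cell cannot be told apart. The part of these markers in the values of the interferon genes was not tested.

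**Figure D5:**
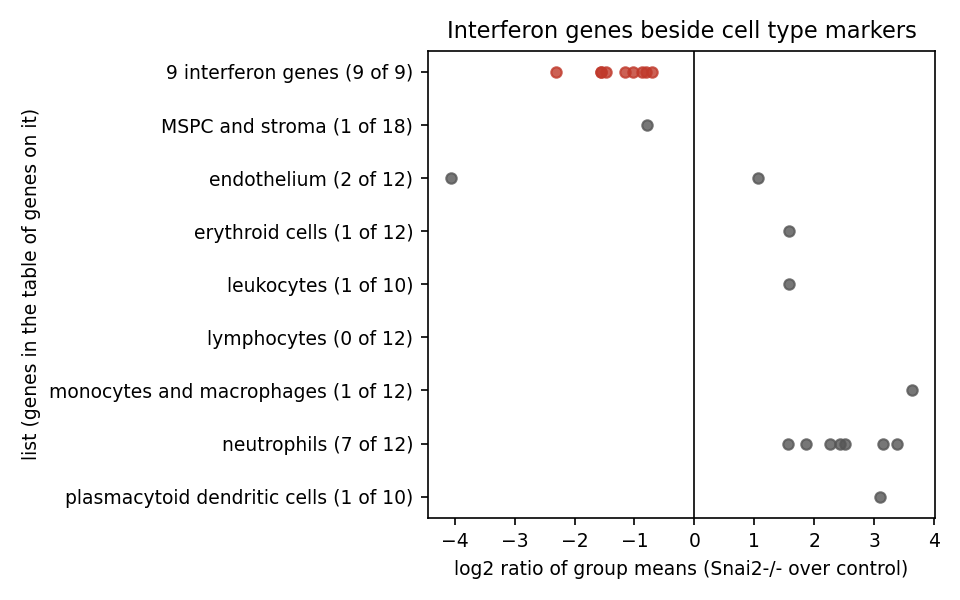
Log2 ratio of group means (Snai2-/- over control) for the 9 interferon genes (red, top row) and for the cell type markers in the table (grey), 1 row per list, with the number in the table and the number on the list. The 9 interferon genes lie left of 0 and the 7 neutrophil markers right of it.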

How the data were processed

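RNA-seq libraries of sorted MSPCs, 3 Snai2-/- and 3 control, were grouped by the genotype in their titles. Column-extracted RNA was, per the labels' protocols, amplified by SMART-Seq v4 and prepared with Nextera XT, chemistries that amplify cDNA by PCR and do not mark strand. HTSeq, Trim Galore, edgeR 3.12.0 and mm10 are named, without roles, per the submitters' processing notes. The sources used here give no aligner, annotation or statistical model.

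Per the file headers, the deposited table holds for mutant against wildtype (read as Snai2-/- and control) a p-value, a step-up FDR, a ratio, a signed fold change written as a score, and a least-squares mean per group. Both the deposited means and the total reads are a normalized signal: 0 of 1285 totals are whole numbers within 1e-06, and no row has a value per library. No model was fitted, and p and FDR are the authors'. How many genes they tested was taken from the FDR, which multiplied by rank over p peaks at that number, a step tested on simulated data, as was the motif search.

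The members, the 6 interferon and 8 marker lists and the tests were chosen with earlier results of these data known. Named genes are the 9, Snai2, every interferon-list gene in the table, the 5 nearest genes, and at most the 2 most abundant genes of each marker list. Genes named as absent from the table, or for their shared sequence, were chosen after their values were seen, as were the searches for the gamma-activated site, the E-box and shared 50-base words. Of the 120 list symbols 119 matched GENCODE M21 (GRCm38, the assembly that mm10 denotes), the exception being Mb21d1, which the table held neither under that name nor as Cgas. Coordinates are 1-based. Coding sequences were aligned globally. Python 3.11.15, numpy 2.4.6, pandas 2.3.3, Biopython 1.88 and matplotlib 3.10.9 were used.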

Additional observations from a re-analysis of the deposited data

How the results depend on the processing

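The median log2 ratio of the 9 genes, -1.16 as first given, was -1.01 with 1 and -1.08 with 0.5 added to both means, and -0.81 when centred on the median of all genes in the table (-0.36). These alternatives could not turn the sign of any of the 9, whose log2 ratios were all below -0.36. At an unadjusted p below 0.01 the interferon-list genes with a lower mean numbered 8 in place of 18, and 2 in place of 9 with the 9 described genes left out, where 0.969% of all genes tested had such a p and a lower mean. At p below 0.02 they numbered 14, and 6 without the 9, where 1.77% of all genes tested had such a p and a lower mean. With a mean of both groups of at least 10 they numbered 13, and 6 without the 9. No background share stands beside these counts, because means are at hand only for the genes in the table. With the median length of the coding transcripts, the level per kilobase of the highest gene was 205 times that of the lowest in control cells, in place of 180.0. Allowing the shorter form GAANNGAAA as well added Ifi44 to the promoters with a match, 5 of 6, but also raised the share of all genes to 11.9%. No paired analysis was possible because each group has 1 mean per gene, and for the same reason left-out replicates, other normalizations and count models were not run. Whether 1 library decides any of these values was not tested.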

Other observations

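Beyond the interferon genes, the Snail-type E-box CAGGTG (either strand, in windows from 250 bases before to 50 after the start) was in 143 of 469 genes of the table with a higher mean in Snai2-/- cells, 30.5%. It was in 89 of 466 with a lower mean, the 9 interferon genes left out, 19.1%, and in 22.6% of all genes with a window. The median GC content of these windows was 60.7% for the higher and 59.7% for the lower genes, but 52.7% for all windows. The share of all genes thus comes from windows of unlike base content. This search was added after the data were seen and no test was made of it.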
